A study of Homo sapiens with 24 samples.

Results

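MEF2A and MEF2D, transcription factors of the MEF2 family, and HDAC4, HDAC5 and HDAC7, class IIa histone deacetylases that bind MEF2 factors, were examined for peaks of protein-bound RNA in 293T cells. Each gene was taken as a fixed window on the hg19 genome build, and a peak was a member when it overlapped a window by at least 1 nt on the gene's strand. The 5 windows held 120 of the 269336 peaks in 7 lists. They were chosen by RBFOX2 values of these same lists, and HDAC4 was included as the window with the strongest RBFOX2 locus. RBFOX2 values against input, SLBP or IgG are therefore given as a description, with no test.

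The peaks come from eCLIP, in which proteins are crosslinked to RNA by ultraviolet light, precipitated with an antibody, and the attached RNA fragments are sequenced beside an input sample that skips the precipitation. The lists covered 2 libraries precipitated with an antibody against RBFOX2, 4 with an antibody against SLBP, a protein that binds histone mRNA, and 1 with control IgG. All came from 293T, a human embryonic kidney cell line, irradiated at 254 nm and 400 mJ/cm2. The lysate was treated with 40 U of RNase I for RBFOX2, SLBP replicates 1 and 2 and IgG, and with 5 U for SLBP replicates 3 and 4. The labels name no genetic change in the cells and do not say whether replicates were separate cultures, so SDs between them may be technical.

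MEF2 proteins bind DNA through a MADS box and activate genes of muscle, neurons and stressed cells. Class IIa histone deacetylases sit on MEF2 and repress those genes, and when kinases phosphorylate them they are held by adaptor proteins and leave the nucleus. RBFOX2 binds GCAUG elements in RNA, many of them in introns, and regulates alternative splicing. In mouse muscle precursor cells Mef2d is among the transcripts whose splicing depends on Rbfox2.

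The windows were MEF2A at chromosome 15, 100106101 to 100256700 on the plus strand, MEF2D at chromosome 1, 156433501 to 156470700, HDAC4 at chromosome 2, 239969801 to 240322700, HDAC5 at chromosome 17, 42154101 to 42201100, and HDAC7 at chromosome 12, 48176501 to 48213800, the last 4 on the minus strand. Their lengths were 150.6 kb for MEF2A, 37.2 kb for MEF2D, 352.9 kb for HDAC4, 47 kb for HDAC5 and 37.3 kb for HDAC7. No hg19 annotation was used here, so whether a peak lies in an exon, an intron or a UTR is not given. In the RefSeq gene table of GRCh38.p14, MEF2D overlaps no other gene, while HDAC4 shares its strand with MIR4440, MIR4441, MIR2467 and LOC124908009. A peak of the HDAC4 window is assigned to HDAC4 only by position and strand.

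Every fold below is the authors' deposited log2 fold of a precipitate over its own input at that peak, and the read depth behind it is unknown. A peak was called enriched when its −log10 p was at least 5 and its log2 fold at least 3, which is 8-fold. The windows held 43 and 56 peaks in RBFOX2 replicates 1 and 2, against 6, 4, 3 and 1 in SLBP replicates 1 to 4 and 7 in IgG. Of these, 18 and 22 were enriched in RBFOX2, or 41.9% and 39.3%, where 7.95% and 7.66% of all peaks in those lists were. In SLBP 0 of 14 were enriched, where the whole lists had 1.23%, 1.27%, 1.70% and 2.33% for replicates 1 to 4. In IgG 1 of 7 was enriched, where the whole list had 0.180%. That peak lay in the HDAC4 window, at the RBFOX2 locus for which the window was chosen. Without HDAC4, 0 of 5 IgG peaks were enriched, so nothing is read from the IgG share. The RBFOX2 shares were used by the choice of the windows and nothing is read from them.

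HDAC4 held nearly all of the enriched RBFOX2 peaks, 17 of 18 in replicate 1 and 21 of 22 in replicate 2. The remaining enriched peak lay in MEF2A in replicate 1 and in MEF2D in replicate 2. Without HDAC4, 1 of 25 RBFOX2 peaks was enriched in replicate 1 and 1 of 35 in replicate 2, or 4% and 2.86%. Over all peaks of those lists the shares were 7.95% and 7.66%. With 1 enriched peak in each replicate, nothing is read from the difference. The median log2 fold of RBFOX2 peaks in the windows was 2.50 and 2.77, and 1.94 and 2.01 without HDAC4, against 0.73 and 0.86 over all peaks of those lists. Medians above those of the whole list were also found in the other libraries, on few peaks. In IgG the median was 2.90 against 1.31. In SLBP replicates 1 to 4 the medians were 2.83, 2.13, 2.24 and 1.26 against 1.57, 1.46, 0.66 and 1.17. No RBFOX2 peak of the 5 windows lay below input, 0 of 43 and 0 of 56. Without HDAC4, whose peaks are mostly pieces of 1 stretch, 0 of 25 and 0 of 35 lay below input. Such counts still permit shares as high as 12% and 8.57%, counting error alone considered. That bound takes peaks as separate draws, which peaks of the same genes are not, so it is no test against the lists. In the whole RBFOX2 lists 32.6% and 31.0% of peaks lay below input. These RBFOX2 folds, too, were used by the choice of the windows.

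**Figure D1:**
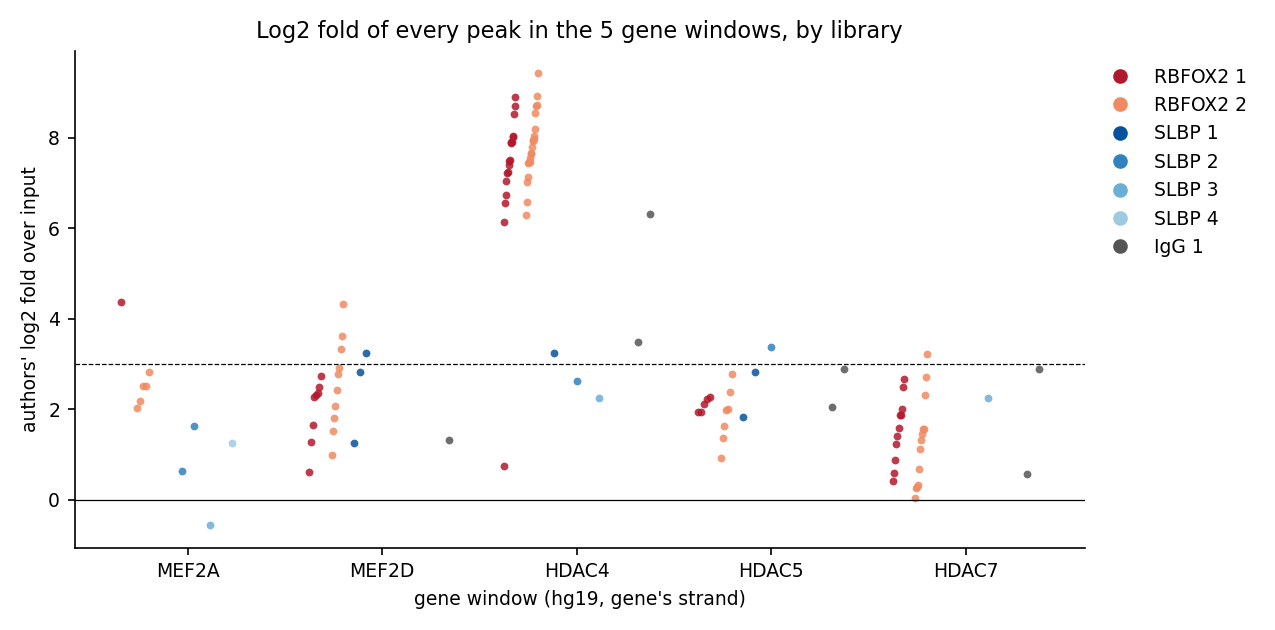
Authors' log2 fold over input (vertical axis) of every peak in the 5 gene windows, by gene and by library, with RBFOX2 left of SLBP and IgG and a dashed line at the limit of 3. The HDAC4 peaks of RBFOX2 lie between 6.14 and 9.42 apart from 1 at 0.73, while no RBFOX2 peak of the other 4 genes exceeds 4.37.

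By the highest log2 fold in each window, averaged over the RBFOX2 replicates, the genes ran HDAC4, MEF2A, MEF2D, HDAC7 and HDAC5. The values were 9.16 ± 0.37 for HDAC4, 3.59 ± 1.10 for MEF2A, 3.53 ± 1.13 for MEF2D, 2.94 ± 0.40 for HDAC7 and 2.52 ± 0.35 for HDAC5 (SD, n = 2). HDAC4, chosen for the strongest RBFOX2 locus, lay outside the range of the others in both libraries. The other 4 overlapped with their neighbours: MEF2A ranged over 4.37 and 2.82 in replicates 1 and 2, MEF2D over 2.73 and 4.33, HDAC7 over 2.66 and 3.22, and HDAC5 over 2.27 and 2.77. By the number of RBFOX2 peaks per kb of window the order was different. HDAC7 had 0.322 peaks per kb, MEF2D 0.242, HDAC5 0.128, HDAC4 0.0553 and MEF2A 0.0199, as means of both replicates. With touching peaks of a library joined into 1, HDAC4 fell below MEF2A, at 0.00708 per kb against 0.0199, and MEF2D was at 0.228 while HDAC5 and HDAC7 kept their values. The 3 shortest windows were the most densely peaked by both counts.

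HDAC4, a class IIa deacetylase that represses MEF2 targets in muscle and bone, had 18 and 21 peaks in RBFOX2 replicates 1 and 2. SLBP had 1, 1, 1 and 0 peaks in replicates 1 to 4, and IgG had 2. The highest log2 fold was 8.89 and 9.42 in RBFOX2, against 3.24, 2.63 and 2.24 in SLBP replicates 1 to 3 and 6.31 in IgG. All RBFOX2 values but 1 therefore lay in a band that SLBP did not reach. The top peak of replicate 2 was the highest of its whole list of 97594 peaks, and that of replicate 1 was the 17th of 74902. HDAC4 was chosen for its strong RBFOX2 locus, so these ranks describe that choice and are no separate result.

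All enriched RBFOX2 peaks of HDAC4 lay in a single stretch of under 1 kb, 34.7 kb from the 5′ edge of a 352.9 kb window. The stretch ran from 240287139 to 240288013 in replicate 1 (875 nt, of which 834 were covered) and from 240287226 to 240288011 in replicate 2 (786 nt, all covered). In replicate 1 its 17 peaks had log2 folds of 6.14 to 8.89 with a median of 7.50, which is 181-fold. In replicate 2 its 21 peaks had log2 folds of 6.28 to 9.42 with a median of 7.78, which is 220-fold. The authors' lists cut the stretch into pieces with median widths of 55 nt in replicate 1 and 31 nt in replicate 2, so the number of peaks there is not a number of separate sites. When touching enriched peaks were joined, the whole set of windows held 4 enriched runs in replicate 1 and 2 in replicate 2.

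The nucleotides enriched in both replicates formed 2 regions, and these were the only ones in the 5 windows. The first, chr2:240287226-240287793 on the minus strand, was 568 nt long and reached log2 folds of 8.89 and 9.42. The second, chr2:240287798-240288011 on the minus strand, was 214 nt long and reached 8.53 and 8.70. The replicates put the summit at different pieces of the first region. In replicate 1 it was the piece 240287406 to 240287471 with 8.89, where replicate 2 had 8.03. In replicate 2 it was the piece 240287535 to 240287591 with 9.42, where replicate 1 had 7.89.

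Within the stretch, the fold was high throughout and its fine shape was not shared between the replicates. Over the 782 nt covered in both, replicate 2 minus replicate 1 averaged 0.20 on the log2 scale with an SD of 1.03, and 58.6% of the nucleotides differed by less than 1. Pearson's r between the replicates along these nucleotides was 0.10, as a description only, since neighbouring nucleotides share peaks. All 38 enriched pieces had the same deposited −log10 p of 15.66, so that p-value gives no order among them. It corresponds to a p of 2.2e-16, and whether that is the smallest p the authors' test could report is not stated in the labels. A stricter limit, −log10 p of at least 20, left no enriched peak in any of the 5 windows, and peaks with a p reported at such a bound could not have passed it.

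**Figure D2:**
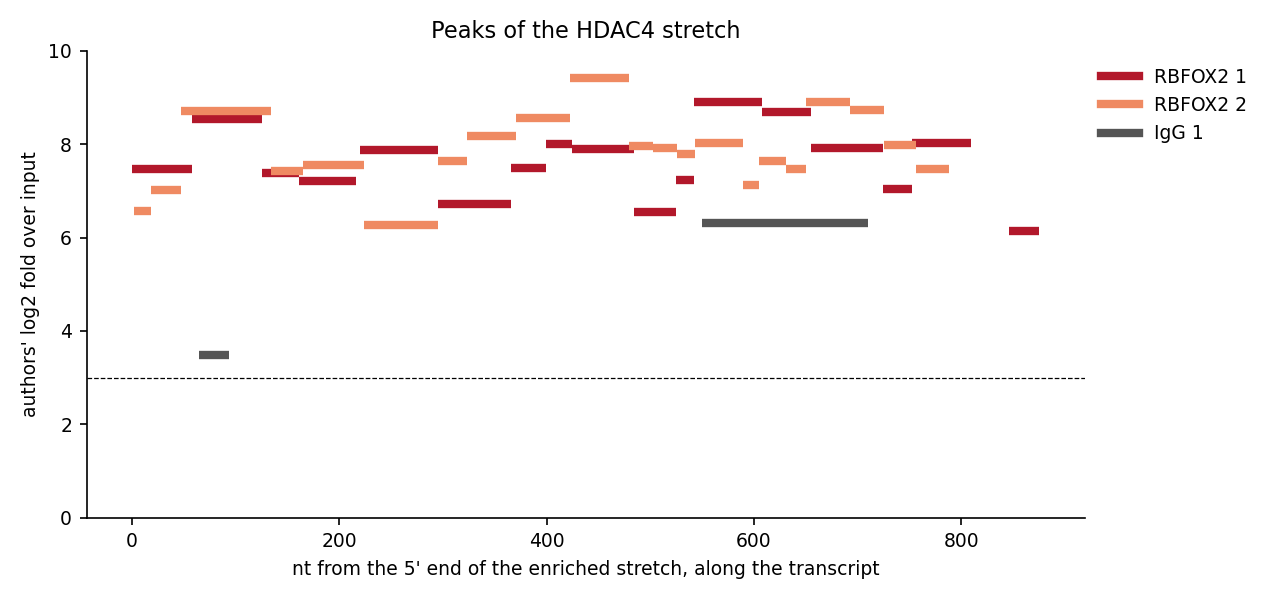
Authors' log2 fold over input (vertical axis) of each peak along the HDAC4 stretch, in nt from its 5′ end (horizontal axis), for RBFOX2 replicates 1 and 2 and IgG, each peak drawn as a bar across its width. RBFOX2 pieces fill the stretch at 6.14 to 9.42, and IgG has 1 piece at 6.31 and 1 at 3.48.

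The IgG control also had peaks in this stretch. Its stronger one, 240287304 to 240287463, was 160 nt long, had a log2 fold of 6.31 (79.4-fold) and a −log10 p of 15.66, and was the 4th highest fold of the 28361 IgG peaks. At the same nucleotides RBFOX2 had 3 pieces of 7.91 to 8.89 in replicate 1 and 6 pieces of 7.13 to 8.91 in replicate 2. The weaker IgG peak, 240287920 to 240287948, had a log2 fold of 3.48 with a −log10 p of 3.39, where RBFOX2 had 8.53 and 8.70. Every RBFOX2 piece there was thus above the IgG peak it overlapped, each against its own input. The part of the IgG signal in the RBFOX2 values was not tested, and there is 1 IgG library.

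A long unbroken run of enriched peaks was uncommon in these lists. Joined where they touch, the enriched peaks of replicate 1 gave 4016 runs with a median length of 68 nt, and those of replicate 2 gave 4861 with a median of 65 nt. The longest HDAC4 run measured 589 nt and was the 9th longest in replicate 1, and measured 786 nt and was the 2nd longest in replicate 2. The longest run of both lists lay on chromosome 11, from 71169984 to 71170828 in replicate 1 (845 nt) and from 71169975 to 71170839 in replicate 2 (865 nt), on the plus strand. With gaps of up to 50 nt bridged, the HDAC4 run was 875 nt and 6th in replicate 1, and 786 nt and 12th in replicate 2.

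The rest of the HDAC4 window was nearly empty. RBFOX2 had 1 further peak, in replicate 1, at 239990524 to 239990535 with a log2 fold of 0.73, far downstream at 94.1% of the window. The SLBP peaks lay elsewhere, at 86.1%, 20.7% and 4.18% of the window in replicates 1, 2 and 3, and none touched the stretch.

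HDAC5, a class IIa deacetylase that is exported from the nucleus on signals to heart and skeletal muscle, had 5 and 7 peaks in RBFOX2 replicates 1 and 2 and none was enriched. Their log2 folds ran from 1.94 to 2.27 with a median of 2.11 in replicate 1, and from 0.92 to 2.77 with a median of 1.99 in replicate 2. SLBP had 1.83 and 2.83 in replicate 1, 3.36 in replicate 2 and no peak in replicates 3 and 4. IgG had 2.90 and 2.05. The ranges overlapped, and no SLBP or IgG peak lay at an RBFOX2 place.

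The RBFOX2 peaks of HDAC5 lay in the upstream part of the window, between 1.57% and 32.7% of its length from the 5′ edge. Both replicates had a peak at 3 places. At chr17:42200322-42200361, close to the 5′ edge, the folds were 2.22 and 2.77 in replicates 1 and 2. At chr17:42186323-42186381 they were 2.27 and 2.01, and at chr17:42185678-42185719 they were 1.94 and 1.36. The differences between replicates at these places were 0.58 or smaller on the log2 scale.

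HDAC7, a class IIa deacetylase of blood vessel endothelium and developing T cells, had 11 and 13 RBFOX2 peaks, the most peaks per kb of the 5 genes, and none was enriched. Their median log2 folds were 1.58 and 1.32, and the highest were 2.66 and 3.22. SLBP had 1 peak, of 2.24 in replicate 3, and IgG had peaks of 2.90 and 0.57. The RBFOX2 folds and the IgG folds overlapped.

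The HDAC7 peaks were spread over the window, from 5.00% to 99.6% of its length in replicate 1 and from 5.04% to 97.5% in replicate 2. Both replicates had a peak at 6 places, the most of any of the 5 genes. The 3 highest by the lower replicate were chr12:48201320-48201404 with 2.66 and 3.22, chr12:48186025-48186071 with 2.50 and 2.72, and chr12:48211606-48211631 with 1.58 and 1.56. At the other 3 the folds were 1.22 and 1.11, 2.00 and 0.67, and 0.87 and 0.32. The IgG peak of 0.57 overlapped an RBFOX2 replicate 1 peak of 0.41 at the 3′ end of the window, chr12:48176587-48176637. RBFOX2 also had 1 peak in each replicate on the opposite strand of this window, the first below its input and the second with a log2 fold of 0.86. They were the only opposite-strand peaks in the 5 windows, and SLC48A1 and LOC124902926 lie on that strand in the GRCh38.p14 table.

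MEF2A, a MEF2 factor of heart and skeletal muscle, had 1 peak in RBFOX2 replicate 1 and 5 in replicate 2. The replicate 1 peak, 100244387 to 100244427, was enriched, with a log2 fold of 4.37 and a −log10 p of 6.28. Replicate 2 had a peak inside the same place, 100244388 to 100244416, with a log2 fold of 2.51, short of the limit. It lay at 91.8% of the window's length. The other replicate 2 peaks, at 24.3%, 43.4%, 95.6% and 96.4% of the window, had log2 folds of 2.03 to 2.82 and no counterpart in replicate 1. SLBP had 0.63 and 1.63 in replicate 2, −0.56 in replicate 3 and 1.26 in replicate 4, and none in replicate 1, and IgG had no peak. All RBFOX2 folds of MEF2A were above all SLBP folds there, as a description of these lists.

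MEF2D, a MEF2 factor with alternatively spliced muscle isoforms, had 8 and 10 RBFOX2 peaks with median log2 folds of 2.30 and 2.59. Only 1 was enriched, in replicate 2, at 156434792 to 156434835, with a log2 fold of 4.33 and a −log10 p of 12.63. At the same place replicate 1 had 2.35 with a −log10 p of 2.87. SLBP replicate 1 had peaks of 1.24, 2.83 and 3.24, and SLBP replicates 2 to 4 had none. IgG had 1 peak of 1.31, which overlapped an RBFOX2 replicate 1 peak of 2.27. As in MEF2A, a place was found in both RBFOX2 replicates and passed the limits in 1 of them.

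RBFOX2 peaks gathered towards the 3′ end of the MEF2D window. The part beyond 90% of the window's length held 7 of 8 peaks in replicate 1 and 6 of 10 in replicate 2, some of them touching pieces. The enriched peak lay at 96.4% of its length, and the IgG peak also lay in this part, at 92.75%. MEF2A had 1 of 1 and 3 of 5 RBFOX2 peaks beyond 90% of its window. Such shares over the genes of the whole lists were not computed, so nothing particular to MEF2D is read from them. Both replicates had a peak at 4 places. Besides the one above, these were chr1:156445970-156446000 with 2.73 and 1.53 in replicates 1 and 2, chr1:156436323-156436368 with 1.27 and 0.99, and chr1:156436452-156436505 with 0.61 and 1.81.

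**Figure D3:**
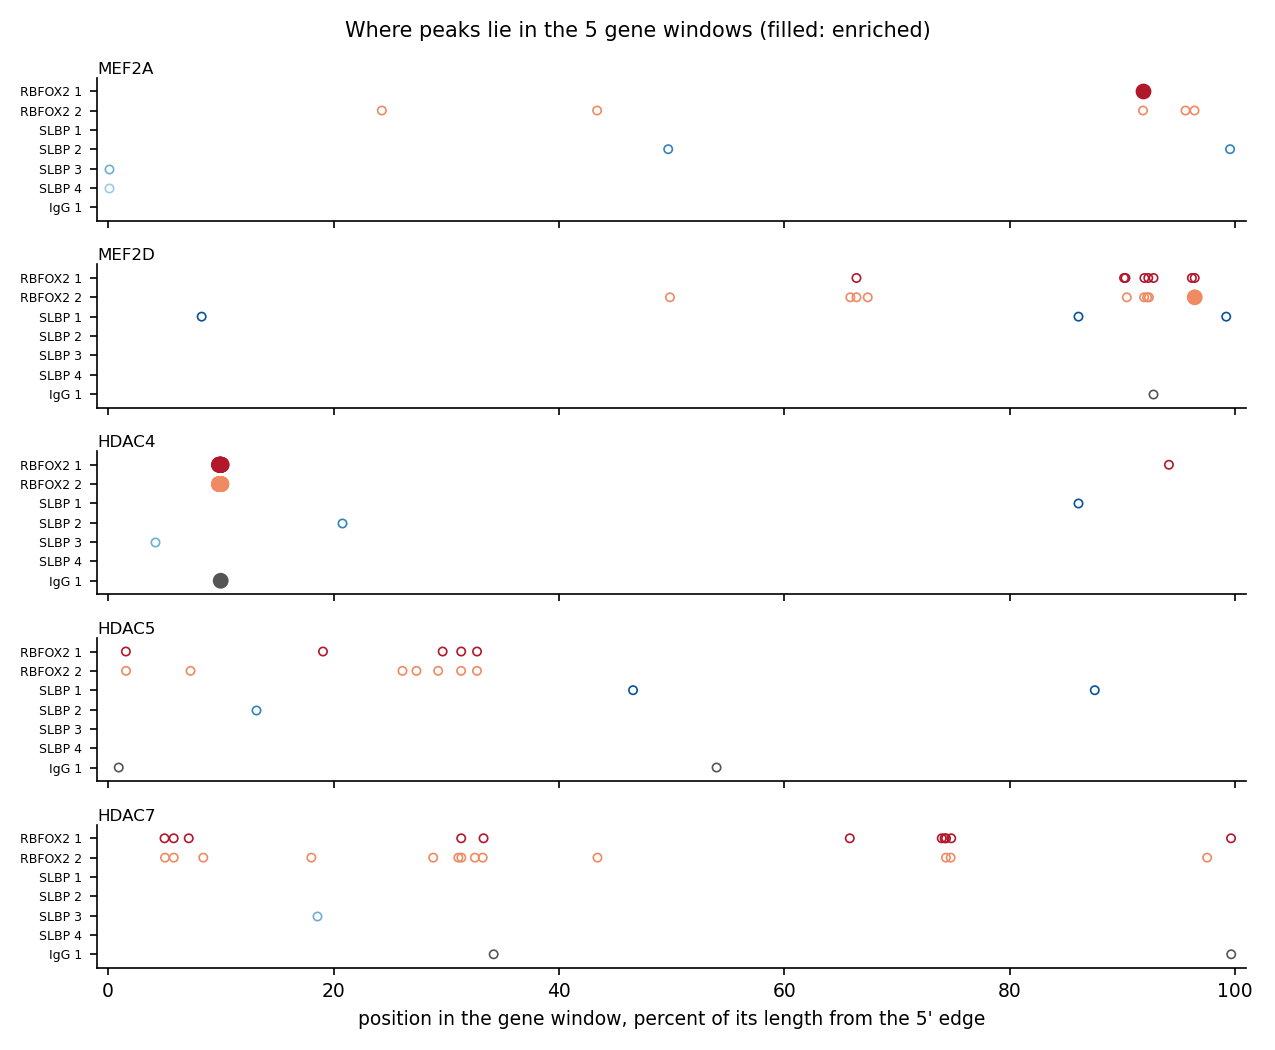
Position of every peak in its gene window, in percent of the window's length from the 5′ edge (horizontal axis), by library and gene, with filled points for enriched peaks and open points for the others. Among the RBFOX2 peaks, those of HDAC4 stack near 10% apart from 1 at 94.1%, and those of HDAC5 lie within the first 32.7%. Those of MEF2A and MEF2D lie mostly beyond 90%, and those of HDAC7 are spread out.

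Outside HDAC4, most RBFOX2 places had a peak of 1 replicate only, 11 of replicate 1 and 20 of replicate 2. Where both replicates had a peak, their folds differed by a median of 0.56 on the log2 scale. Touching peaks of any list were joined into places, which gave 65 places over the 5 windows, of which 48 had an RBFOX2 peak and 15 had peaks of both replicates. Without HDAC4, 14 of 45 RBFOX2 places were found in both, which is 56% of the 25 places of replicate 1 and 41.2% of the 34 of replicate 2. At these 14, replicate 2 minus replicate 1 averaged −0.12 on the log2 scale, with a largest absolute difference of 1.98, and replicate 2 was higher at 5. IgG had 6 places, of which 3 had an RBFOX2 peak, and SLBP had 14, of which 0 had an RBFOX2 peak. The shares of overlapping places over the whole lists were not computed. Nothing particular to these genes is therefore read from the overlaps with IgG and SLBP or between the RBFOX2 replicates.

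**Figure D4:**
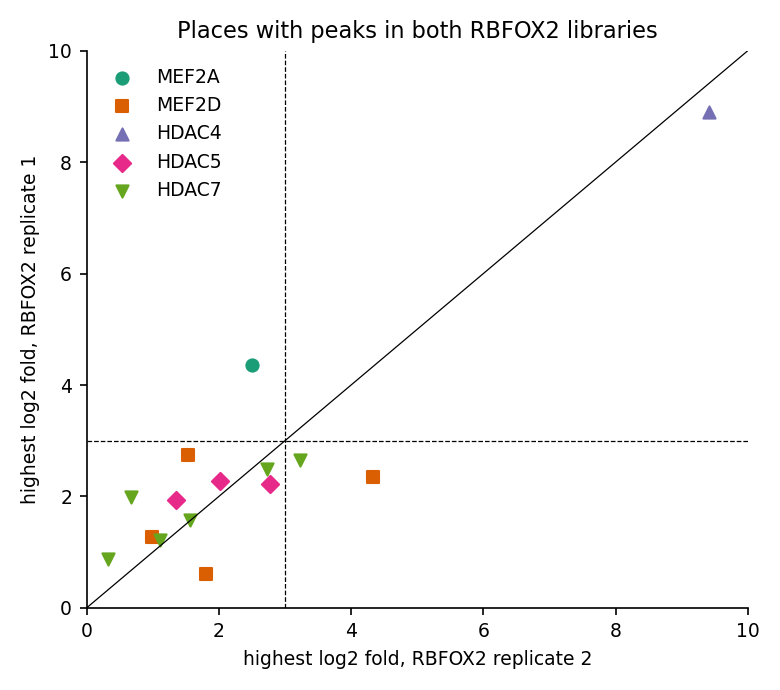
Highest authors' log2 fold of RBFOX2 replicate 1 (vertical axis) against that of replicate 2 (horizontal axis) at the 15 places with a peak in both, coloured by gene, with dashed lines at 3 and a line of equality. HDAC4 stands alone at 8.89 and 9.42, and the enriched peaks of MEF2A and MEF2D pass the limit in 1 replicate each.

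Most RBFOX2 values outside HDAC4 did not reach the limits, and many were repeated in their lists. Of the 60 RBFOX2 peaks there, 58 were not enriched, with log2 folds of 0.03 to 3.62 and −log10 p of 3.46 or less. The exact pair of p and fold of a peak was shared with at least 100 peaks of the same list for 21 of 25 peaks in replicate 1 and 28 of 35 in replicate 2. The share of such peaks over the whole lists was not computed, so nothing particular to these genes is read from these counts. The pairs of the enriched MEF2A and MEF2D peaks were found in 29 and 6 peaks of their lists. In HDAC4, 29 of the 38 enriched pieces had a pair found once in their list, and none had a pair shared by more than 5 peaks. All 38 had the same p, so their pairs differ only by fold. Those high folds were used by the choice of HDAC4, and nothing is read from this contrast. All SLBP peaks outside HDAC4 and all IgG peaks there also carried values shared with at least 100 peaks of their lists, such as the IgG log2 fold of 2.90, found in 2634 peaks. The SLBP peaks reached a log2 fold of 3 in 3 of 14 cases, but no −log10 p among them exceeded 1.79.

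For genes of the same pathway, 10 windows recalled from general knowledge and not checked against an hg19 annotation were counted. They were MEF2C of the MEF2 family, HDAC9 of class IIa, NCOR1 and HDAC3 of the corepressor complex, the class I deacetylases HDAC1 and HDAC2, the adaptors YWHAE and YWHAB that bind phosphorylated deacetylases, and the kinases CAMK2G and CAMK2D. Enriched peaks were found in 2 of the 10 in each RBFOX2 replicate, 19 of 86 peaks and 30 of 115. These shares were 22.1% and 26.1%, where 7.95% and 7.66% of all peaks in those lists were enriched. In replicate 1 the enriched peaks lay in CAMK2G (17) and CAMK2D (2), and in replicate 2 in CAMK2G (29) and HDAC2 (1). The shares thus rest on CAMK2G, where 17 of 18 and 29 of 29 peaks were enriched, and nothing is read from them about the other genes. SLBP had 0 enriched of 37, 29, 29 and 17 peaks in replicates 1 to 4, and IgG had 0 of 33.

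CAMK2G, a calcium-dependent kinase whose family phosphorylates HDAC4, reached log2 folds of 7.91 and 6.53 in RBFOX2 and 2.90 in IgG. The nearest relatives of the 5 genes had no enriched RBFOX2 peak in the windows counted: HDAC9 reached 3.54 and 2.19, and MEF2C reached 0.41 and 1.56. The HDAC9 window is shorter than the gene's span in the GRCh38.p14 table, so part of HDAC9 was not counted. By the mean absolute difference in highest log2 fold over RBFOX2 replicates 1 and 2 and IgG, among 11 genes with a peak in all 3 lists, HDAC5 and HDAC7 were closest to each other (0.28). Their highest IgG folds were tied at 2.90, a repeated value found in 2634 IgG peaks, and the RBFOX2 folds were used by the choice of the windows. MEF2D was closest to YWHAB (0.82) and HDAC4 to CAMK2G (2.43), and MEF2A could not be placed because it had no IgG peak.

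RNase I amount was the labelled difference among the SLBP libraries, and the choice of the windows did not use SLBP values. The median log2 fold of SLBP peaks in the windows was 2.48 ± 0.50 at 40 U and 1.75 ± 0.70 at 5 U (SD, n = 2 each). The difference of 0.73 was not distinguishable from the spread between libraries by a two-sided exact permutation test (p = 0.667, where 0.333 is the smallest p that 2 against 2 libraries allow). With only peaks of at least 20 nt the difference was 1.45, and with means over peaks in place of medians it was 1.02, each with an exact permutation p of 0.333. The medians and means over all peaks rest on 6, 4, 3 and 1 peaks in replicates 1 to 4. With only peaks of at least 20 nt, replicate 1 had fewer, and replicate 2 kept only the HDAC5 peak of 3.36. Over the whole SLBP lists the medians were 1.57 and 1.46 at 40 U and 0.66 and 1.17 at 5 U. The lists as a whole thus also had higher medians at 40 U, and nothing particular to these genes is read from the difference.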

How the data were processed

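Peak lists of 7 eCLIP libraries in 293T cells were used: 2 RBFOX2, 4 SLBP and 1 IgG. The inputs (7 samples) were used by way of the authors' folds, and 10 RBFOX2 samples of an RNase I series were not analysed here. Each deposited list gives an interval and strand per peak, the authors' −log10 p-value and their log2 fold over input. The columns have no header, so the units were read from the values and the naming of the lists. Per the submitters' processing notes, coordinates are on hg19 and the tools included STAR, cutadapt, Picard, GATK and SAMtools. The name of the peak caller was not given in the sources used here. Read counts are not part of the lists, so depth is unknown and no interval on a fold can be given.

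Peaks were matched to the 5 windows by at least 1 nt on the same strand with Python 3.11.15, pandas 2.3.3, NumPy 2.4.6 and SciPy 1.17.1, and figures were drawn with matplotlib 3.10.9. Starts were converted to count from 1. Enriched meant −log10 p of at least 5 and log2 fold of at least 3. The scripts were tested on simulated peaks. The genes named are the 5 members, 10 pathway genes given as counts (1 more gene of the list is not reported here), and for each member the gene with the closest highest folds. Values of CAMK2G, HDAC9 and MEF2C were chosen for print after they were seen. Members, lists, limits and alternatives were chosen with earlier results of these data known. The only test was the exact permutation test over SLBP libraries. Alternatives were stricter and looser limits on p, other limits on fold, joined peaks, a larger overlap, and leaving out a replicate. Joins at 10 and 50 nt, the count without HDAC4 and the joined peaks per kb were added after the data were seen. Sequences under the peaks are not shown, since no hg19 genome was used here.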

Additional observations from a re-analysis of the deposited data

How the results depend on the processing

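The counts of enriched peaks turned on the p limit, on how split peaks were counted and on HDAC4. With −log10 p of at least 20, RBFOX2 replicates 1 and 2 and IgG had 0 enriched peaks and there were 0 regions shared by the RBFOX2 replicates, since every enriched HDAC4 peak had a −log10 p of 15.66, a value that may be a reporting bound of the authors' test (a p of 2.2e-16), which was not tested. With −log10 p of at least 3, IgG had 2. With touching enriched peaks merged, RBFOX2 replicate 1 had 4 and replicate 2 had 2. Without the HDAC4 window, an alternative chosen after seeing the data, RBFOX2 had 1 in each replicate and IgG 0. Leaving out a replicate put the RBFOX2 mean, 20 with both, at 18 to 22, and the MEF2A and MEF2D counts at 0 to 1 each. Leaving out an SLBP replicate put the difference between 40 U and 5 U at 0.23 to 1.22, while peaks of at least 20 nt gave 1.45 and means over peaks 1.02, each with an exact permutation p of 0.333. Of the values that answer a comparison, 49 moved by less than their limit and 10 by more, and those 10 are the counts above other than the ranges. Many of the 49 were SLBP counts that stayed at 0. No setting could have raised them, since no SLBP −log10 p in the windows exceeded 1.79. The 49 also include the SLBP difference of 1.45 in place of 0.73, so the number is no measure of stability. No paired analysis was possible because the replicate numbers of the SLBP libraries differ between the RNase I amounts, and the other results come from no test. Highest folds among peaks with −log10 p of at least 5 could not be given for every gene, since HDAC5 and HDAC7 have no such peak in RBFOX2. Precision is limited by 2 RBFOX2 libraries and 1 IgG library and by an unknown depth.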

Other observations

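The deposited −log10 p of 15.66, carried by all enriched HDAC4 peaks, was found in 1684 and 1887 peaks of the RBFOX2 lists, with median log2 folds of 5.67 and 5.51, and in 4 IgG peaks with a median of 6.34. The ceiling of 400 was found in 122 and 105 RBFOX2 peaks, with median log2 folds of 5.91 and 6.08, and in 18 IgG peaks with a median of 1.67. No peak of the 5 windows was at the ceiling.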
